A study of Mus musculus with 14 samples.

Results

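Trem2, its signalling adaptor Tyrobp and 4 related genes, Trem1, Trem3, Treml2 and Hcst, were taken by gene symbol from the 55335 genes of a single-cell RNA sequencing series of the mouse spinal cord. All 6 were present. The series held 14 libraries, each from dissociated spinal cord at age P115-120 days, and the question behind it was what the myeloid receptor Clec7a (Dectin-1) does in microglia in amyotrophic lateral sclerosis. There were 4 groups. SOD1G93A mice (3 libraries; strain label B6SJL-Tg(SOD1*G93A)1Gur/J) carry a mutant human SOD1 transgene and develop motor neuron disease. SOD1G93A/Clec7a-KO mice (4 libraries; strain label SOD1G93A/Clec7a KO) carry the transgene and lack Clec7a. Clec7a-KO mice (4 libraries; strain label B6.129S6-Clec7atm1Gdb/J) lack Clec7a and carry no transgene, and nTg mice (3 libraries) have neither change. The strain labels differ between groups, so strain background cannot be told apart from genotype. The Clec7a deletion is constitutive by its strain name, and the labels do not say whether a library came from 1 animal or from several, so the spread between libraries may be partly technical.

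After filtering, 89756 cells of 108892 barcodes remained, with 2558 to 10264 cells and 28819852 to 141204910 unique molecular identifiers (UMIs) per library. Library pairs shared 2 to 44 cell barcodes (median 15, over 91 pairs), at most 0.474% of the smaller library. The cells formed 28 clusters, of which 23 received names from marker genes in 10 classes; 5 clusters with 12134 cells stayed unnamed. Names end in "-like" because they rest on markers. The largest class, the microglia-like cells, held 44032 cells in 8 clusters, with all 12 microglial markers detected. As a check of the labels, Clec7a in microglia-like cells was at 1.48 ± 0.75 CPM (counts scaled to library size; SD, n = 4) in Clec7a-KO and 3.17 ± 0.82 (n = 4) in SOD1G93A/Clec7a-KO. It was at 52.0 ± 28.7 (n = 3) in nTg and 968 ± 112 (n = 3) in SOD1G93A.

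Trem2 is an immunoglobulin-like receptor of microglia and other tissue macrophages that binds lipids, lipoproteins and cell debris. It has no signalling tail of its own: it pairs in the membrane with Tyrobp (DAP12), whose ITAM motif recruits the kinase Syk. Loss of either protein in people causes Nasu-Hakola disease, and rodent microglia need Trem2 to take on the full disease-associated state around damaged tissue. Trem1 and Trem3 also signal through Tyrobp. Trem1 amplifies inflammatory responses of neutrophils and monocytes, and Treml2 is a relative found on several leukocytes. Hcst (DAP10) is the adaptor of the receptor Nkg2d and carries a motif that recruits phosphoinositide 3-kinase and Grb2 in place of an ITAM.

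The 6 genes lie at 2 places in the GRCm38 genome (GENCODE vM21, whose versioned identifiers matched the files for all 6). On chromosome 17, within 121380 bases and all on the plus strand, are Trem1 (ENSMUSG00000042265.13, 48232768 to 48246924), Trem3 (ENSMUSG00000041754.5, 48247777 to 48258841), Treml2 (ENSMUSG00000071068.7, 48299498 to 48312533) and Trem2 (ENSMUSG00000023992.14, 48346401 to 48354147). On chromosome 7, Tyrobp (ENSMUSG00000030579.10, 30413760 to 30417585, plus strand) and Hcst (ENSMUSG00000064109.8, 30417712 to 30419854, minus strand) point towards each other, with 126 bases between their ends. The sources used here do not say whether counting used strand, so reads running past either end could have gone to the neighbour.

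Tyrobp, Trem3 and Treml2 had no entry among the upstream sequences used here. The 250 bases before the annotated start are therefore shown for 3 members (RefSeq, GRCm38.p6). They are chr7:30419855-30420104 (minus strand) for Hcst, chr17:48232489-48232738 (plus) for Trem1 and chr17:48346151-48346400 (plus) for Trem2, written 5′ to 3′ on the gene's strand. Capitals mark AGGAAGT or its reverse complement ACTTCCT, a core bound by ETS factors such as the myeloid factor PU.1.
Hcst: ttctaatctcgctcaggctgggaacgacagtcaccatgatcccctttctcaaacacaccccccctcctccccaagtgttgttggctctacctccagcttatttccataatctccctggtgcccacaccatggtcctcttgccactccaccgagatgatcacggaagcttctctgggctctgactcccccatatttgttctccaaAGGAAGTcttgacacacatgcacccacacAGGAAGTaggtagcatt
Trem1: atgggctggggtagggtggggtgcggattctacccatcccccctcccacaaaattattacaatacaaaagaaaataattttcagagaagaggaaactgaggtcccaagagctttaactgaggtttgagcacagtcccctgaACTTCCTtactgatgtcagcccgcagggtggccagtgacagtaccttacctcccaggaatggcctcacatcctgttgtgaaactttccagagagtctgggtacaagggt
Trem2: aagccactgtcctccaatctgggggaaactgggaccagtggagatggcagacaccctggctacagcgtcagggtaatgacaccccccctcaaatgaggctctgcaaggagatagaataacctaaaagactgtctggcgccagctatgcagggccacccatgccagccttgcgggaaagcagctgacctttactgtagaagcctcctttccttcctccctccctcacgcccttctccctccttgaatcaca
Hcst held 2 matches, Trem1 held 1 and Trem2 held 0. Of all 32851 windows of 250 bases before RefSeq starts, 2525 (7.69%) held a match. A match is a run of letters and not a measured binding site.

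Trem2 and Tyrobp were detected in nearly every microglia-like cell, while the levels of Trem1 and Trem3 were highest in the few neutrophils-like cells and that of Hcst in T and NK cells-like cells. Levels by class are given as CPM, a gene's UMIs scaled to all UMIs of the class, pooled over the 14 libraries; the reads come from transcript 3′ ends, so a UMI count does not scale with gene length. Over all kept cells, the files held 1749367 UMIs of Trem2, 3216024 of Tyrobp, 30128 of Hcst, 13924 of Treml2, 732 of Trem1 and 355 of Trem3. Statements on Trem1 and Trem3 therefore rest on few molecules. Classes were named from other genes, and the 6 members were left out of the genes used for clustering; the levels by class are a description with no test.

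**Figure D1:**
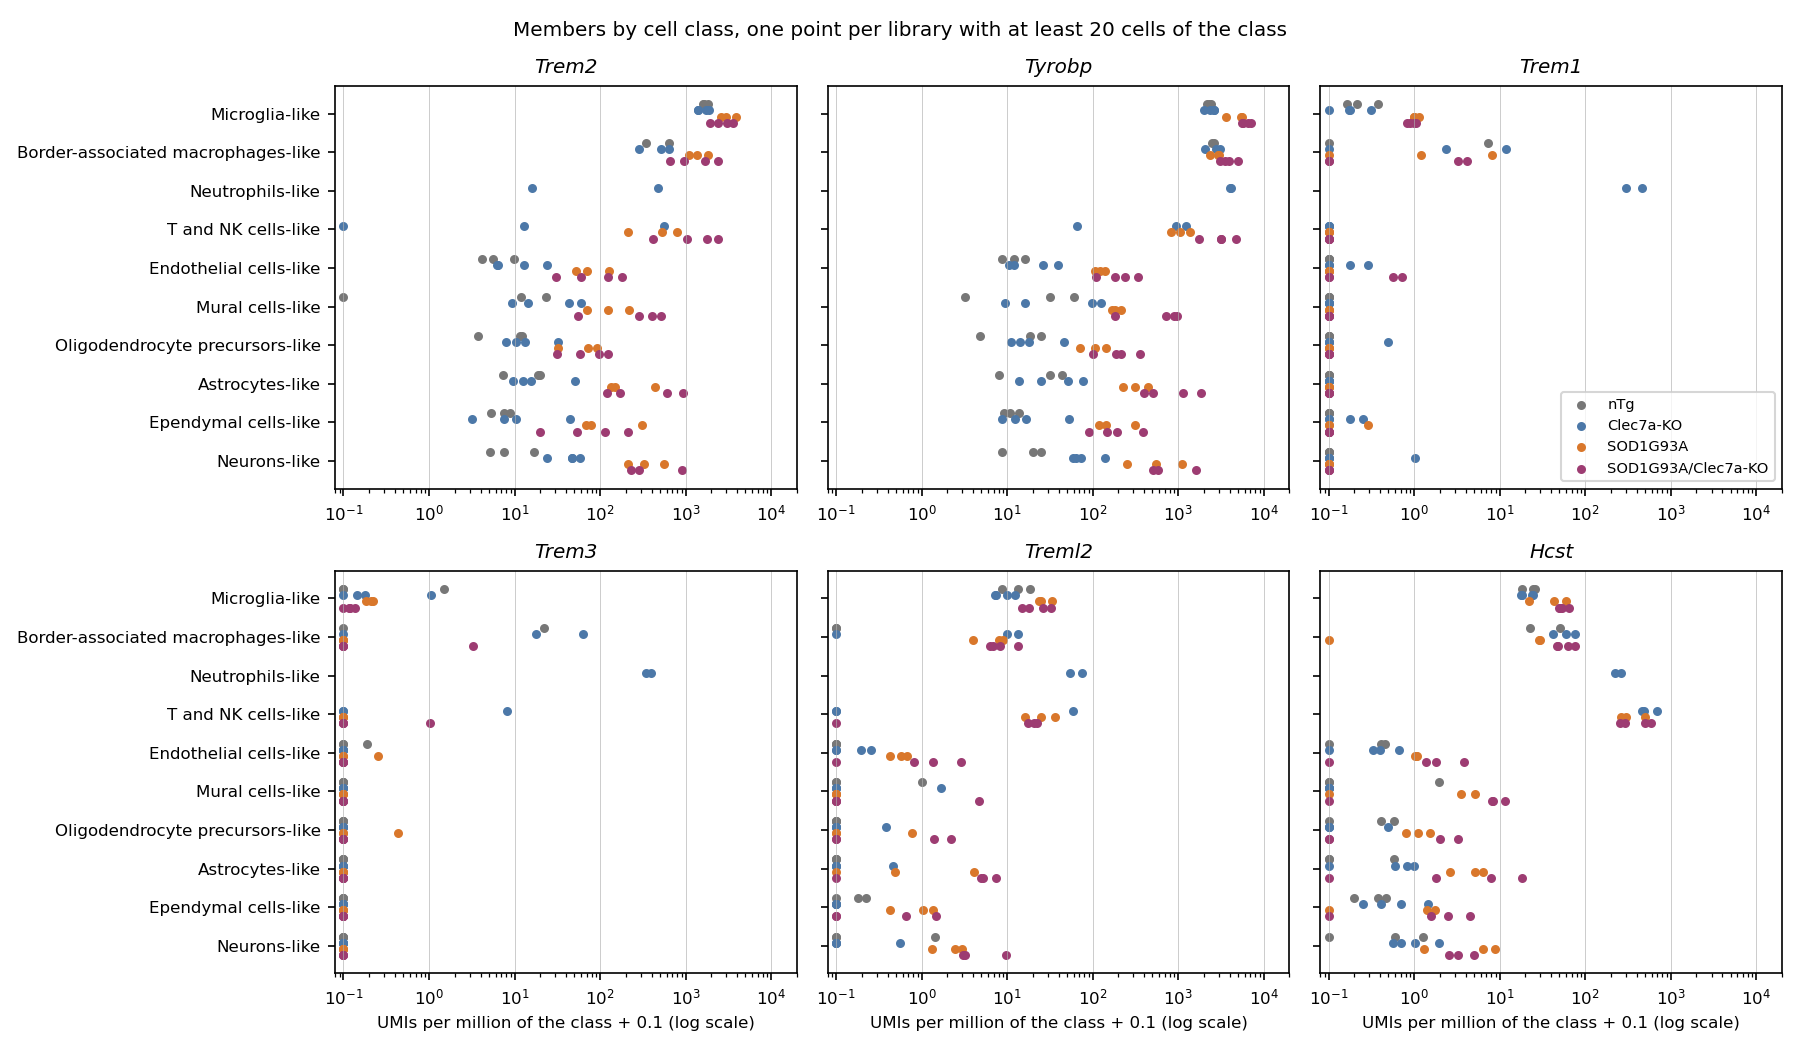
Level of each member in the 10 named classes, in CPM of the class plus 0.1 on a log axis; a point is a library with at least 20 cells of the class, coloured by group, and points at the left edge are libraries at 0. Trem2 sits furthest right in microglia-like cells, with the next highest libraries in macrophages-like and T and NK cells-like cells. Tyrobp is high in these classes and in neutrophils-like cells. Trem1 and Trem3 sit furthest right in the 2 libraries with at least 20 neutrophils-like cells, and Hcst in neutrophils-like and T and NK cells-like cells.

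In microglia-like cells, the pooled level of Trem2 was 2657 CPM and 99.5% of cells had at least 1 UMI, at a median depth of 10273 UMIs per cell. Tyrobp, the shared adaptor, was at 4845 CPM and was present in 99.6% of the cells. In astrocytes-like cells, which should lack both genes, 13.03% had a Trem2 UMI and 18.1% a Tyrobp UMI at a median depth of 4527. With each cell thinned to 2000 UMIs, the share with Trem2 was 97.0% in microglia-like and 7.76% in astrocytes-like cells. Receptor and adaptor were thus detected far more often than in a class without them. Hcst was at 42.6 CPM (32.4% of cells, 7.08% after thinning) and Treml2 at 22.0 (19.4%, 4.09% after thinning). Astrocytes-like cells showed Hcst in 0.912% and Treml2 in 0.430% of cells. Trem1 gave 380 UMIs (0.71 CPM) and Trem3 71 UMIs (0.13 CPM) in 44032 microglia-like cells.

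Border-associated macrophages-like cells (603 cells) also carried the receptor and its adaptor, with Trem2 at 1131 CPM and Tyrobp at 3121. Hcst there (41.6 CPM) was close to the level in microglia-like cells, and Treml2 was at 7.33. Neutrophils-like cells were few: 126 in all, of which 34 and 54 came from Clec7a-KO libraries 1 and 2, the only libraries with at least 20. All 126 had a Tyrobp UMI (4394 CPM), 12.7% had a Trem2 UMI, and Trem1 was seen in 69.0% and Trem3 in 70.6% of them at a median depth of 4448. The level of both genes was higher here than in any other named class. These 126 cells held 284 of the 732 Trem1 UMIs, fewer than the 380 of the far larger microglia-like class, and 235 of the 355 Trem3 UMIs. Trem1 was at 302 and 462 CPM and Trem3 at 341 and 394 in those 2 libraries. Astrocytes-like cells gave 0 UMIs of Trem1 and of Trem3 in 5809 cells. With both neutrophil samples from the same group, nothing can be said of neutrophils across genotypes.

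T and NK cells-like cells (782 cells) had the highest level of Hcst of any class, at 370 CPM, and 76.6% of them had a UMI at a median depth of 4093.5 UMIs. Over the 10 libraries with at least 20 such cells, Hcst ran from 258 to 689 with a median of 473, and the lowest of them lay above every library of the microglia-like class (highest 64.2). Neutrophils-like cells came next, at 237 CPM. Treml2 was highest in neutrophils-like cells (62.2), followed by microglia-like (22.0) and T and NK cells-like cells (20.6). Tyrobp (2392) and Trem2 (1136) were also counted in the T and NK cells-like class, beside 4082 CPM of the complement gene C1qa, a microglial transcript. NK cells express Tyrobp, but the share of these molecules that came from microglia was not tested. Trem1 gave 0 UMIs there, for which 3 UMIs in the class were taken as the upper limit, covering counting error only.

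In the other classes, Trem2 ran from 34.5 CPM (endothelial cells-like) to 138 (neurons-like) and Tyrobp from 63.1 to 251, in the same 2 classes. Hcst was at 0.57 to 2.29 and Treml2 at 0.21 to 1.19. Within a library, the ratio of Trem2 to C1qa in these classes was close to that of the microglia-like cells of the same library, at a median of 1.02 (mural) to 1.14 times it (oligodendrocyte precursors-like). The ratio of Tyrobp to C1qa was 1.14 (neurons-like) to 1.26 times (mural cells-like) that of the microglia-like cells. Border-associated macrophages-like cells differed, with a Trem2 to C1qa ratio of 0.62 and a Tyrobp to C1qa ratio of 1.00 relative to microglia. The source of the low Trem2 and Tyrobp counts in glia, vessels and neurons was not tested.

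Both genes rose with the transgene, together with C1qa, in the 5 of these classes that had enough cells for a test; neurons-like cells were too few in 1 library. In astrocytes-like cells the mean log2 fold change of the 2 transgene comparisons was 4.18 ± 0.49 (SE) for Trem2 and 4.09 ± 0.44 for Tyrobp, beside 4.31 ± 0.54 for C1qa (edgeR quasi-likelihood test over 14 libraries, adjusted p = 1.48e-06, 5.79e-07 and 3.15e-06); 25.3% of 12843 genes rose there. In endothelial cells-like cells the values were 3.33 and 3.31, beside 3.28 for C1qa, where 1.73% of genes rose. Ependymal cells-like (3.71 and 3.80, C1qa 3.89, 2.85% of genes higher), mural cells-like (3.19 and 2.93, C1qa 3.17, 0.941%) and oligodendrocyte precursors-like cells (2.61 and 3.04, C1qa 2.96, 6.67%) gave like values, all past the threshold. The values of the receptor and the adaptor thus stayed near that of C1qa in each class. The share of microglia-like cells was also higher in the libraries with the transgene (values below), and its part in these differences was not tested.

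Among the 8 microglia-like clusters, Trem2, Tyrobp and Hcst were lowest in the 2 clusters led by the homeostatic gene P2ry12 (clusters 1 and 2). Pooled Trem2 was 1596 CPM in cluster 1 and 1919 in cluster 2. It was 2546 in cluster 9 (led by Il12b and Il23a), 2645 in cluster 10 (the proliferation genes Mki67 and Top2a) and 2741 in cluster 7 (the interferon-induced Ifit2 and Ifit3). The highest levels were 2795 in cluster 0 (the chemokines Ccl4 and Ccl3), 3102 in cluster 3 (Mmp12 and Spp1) and 3323 in cluster 4 (Ppfia4 and C1qa). Tyrobp ranged from 2367 in cluster 1 and 2390 in cluster 2 to 6186 in cluster 3. The library ranges of neighbours in both orders overlapped: Trem2 ran from 1273 to 3070 over the 14 libraries of cluster 1 and from 2072 to 3867 over the 7 libraries with at least 20 cells of cluster 3. An unnamed cluster led by Gpnmb (4965 cells), close to microglia, had 3626 CPM of Trem2 and 6808 of Tyrobp.

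**Figure D2:**
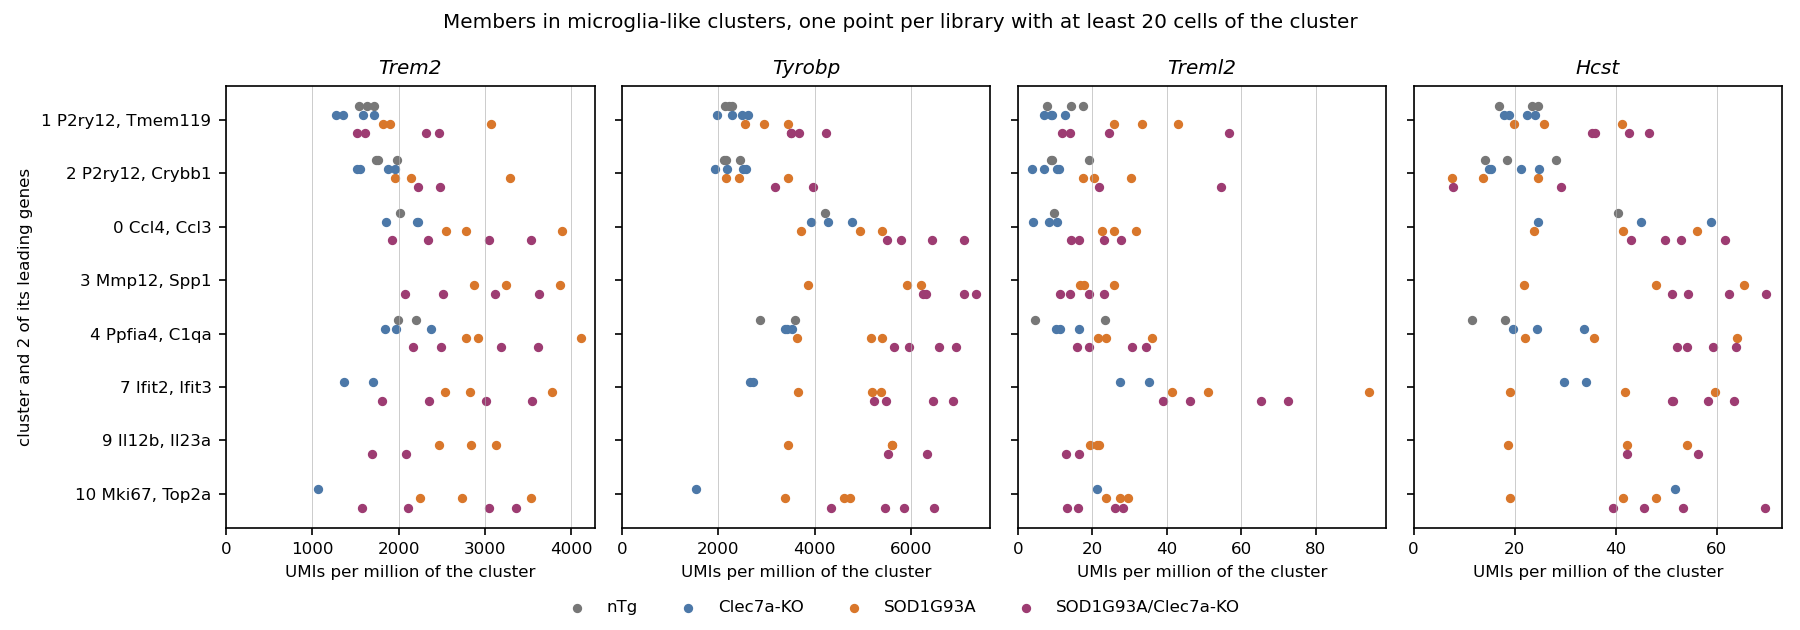
Level of Trem2, Tyrobp, Treml2 and Hcst in each microglia-like cluster, in CPM of the cluster; a point is a library with at least 20 cells of it, coloured by group. Trem2 and Tyrobp are lowest in the clusters led by P2ry12, and Treml2 is highest in cluster 7, which Ifit2 and Ifit3 lead.

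Compared within each library, most other clusters stood above cluster 1 in Trem2 and Tyrobp, although the order among them was not the same as in the pooled levels. Trem2 was higher in cluster 3 than in cluster 1 in 7 of 7 libraries (median log2 difference 0.55), higher in cluster 4 in 12 of 12 (0.52) and in cluster 0 in 11 of 11 (0.49). Tyrobp was higher than in cluster 1 in 7 of 7 libraries for cluster 3 (0.85), 11 of 11 for cluster 0 (0.74), 12 of 12 for cluster 4 (0.65) and 9 of 9 for cluster 7 (0.64). Cluster 2, also led by P2ry12, was higher than cluster 1 in Trem2 in 11 of 12 libraries (median 0.17) and in Tyrobp in 3 of 12 (-0.04). The proliferating cluster 10 was higher in 7 of 8 libraries for both genes (0.35 for Trem2 and 0.51 for Tyrobp), with 1 library at -0.68 and -0.76. Hcst was likewise higher in 7 of 7 libraries for cluster 3 (0.65) and 11 of 11 for cluster 0 (0.43). It was less uniform elsewhere: higher in 8 of 9 libraries for cluster 7, 9 of 12 for cluster 4, 4 of 5 for cluster 9 and 6 of 8 for cluster 10. In cluster 2 it was higher in 3 of 12 (-0.41).

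Treml2 had another pattern: it was highest in the interferon-gene cluster and was not raised in the chemokine cluster or in the cluster led by Mmp12 and Spp1. Its pooled level was 51.2 CPM in cluster 7, above 29.7 in cluster 4 and 10.7 to 23.8 in the other 6 clusters. Within a library it was higher in cluster 7 than in cluster 1 in 9 of 9 libraries, by a median of 1.38 on the log2 scale. It was lower than in cluster 1 in 8 of 11 libraries for cluster 0 (-0.43), in 6 of 7 for cluster 3 (-0.51) and in 4 of 5 for cluster 9 (-0.39). The pooled order, in which clusters 0, 3 and 9 stood above cluster 1, was therefore not the order found within libraries. Clusters are defined by the expression of genes that vary with the members, so these differences between clusters are a description.

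In microglia-like cells, 5 of the 6 genes were higher with the SOD1G93A transgene, in mice with and without Clec7a, and no member passed the test between Clec7a genotypes. The class drew on different clusters by group: cluster 1, low in Trem2 and Tyrobp, held 3526 nTg and 3794 Clec7a-KO cells against 437 SOD1G93A and 383 SOD1G93A/Clec7a-KO cells, and cluster 3, high in both, held 9 and 15 against 2919 and 3658. Cluster 0 held 68 and 143 against 3562 and 4119. Values are CPM after TMM scaling of the UMIs summed per library. Trem2 was at 1281, 1542 and 1379 in nTg and at 1559, 1458, 1157 and 1364 in Clec7a-KO libraries. With the transgene it was at 4150, 3479 and 2978 in SOD1G93A and at 3427, 4324, 3049 and 2451 in SOD1G93A/Clec7a-KO. The 7 libraries with the transgene thus all lay above the 7 without it, and the groups with and without Clec7a overlapped on both sides. SOD1G93A minus nTg gave a log2 fold change of 1.34 ± 0.22 (SE; adjusted p = 0.000436, edgeR quasi-likelihood test over 16619 genes), and SOD1G93A/Clec7a-KO minus Clec7a-KO gave 1.26 ± 0.19 (adjusted p = 0.000125).

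**Figure D3:**
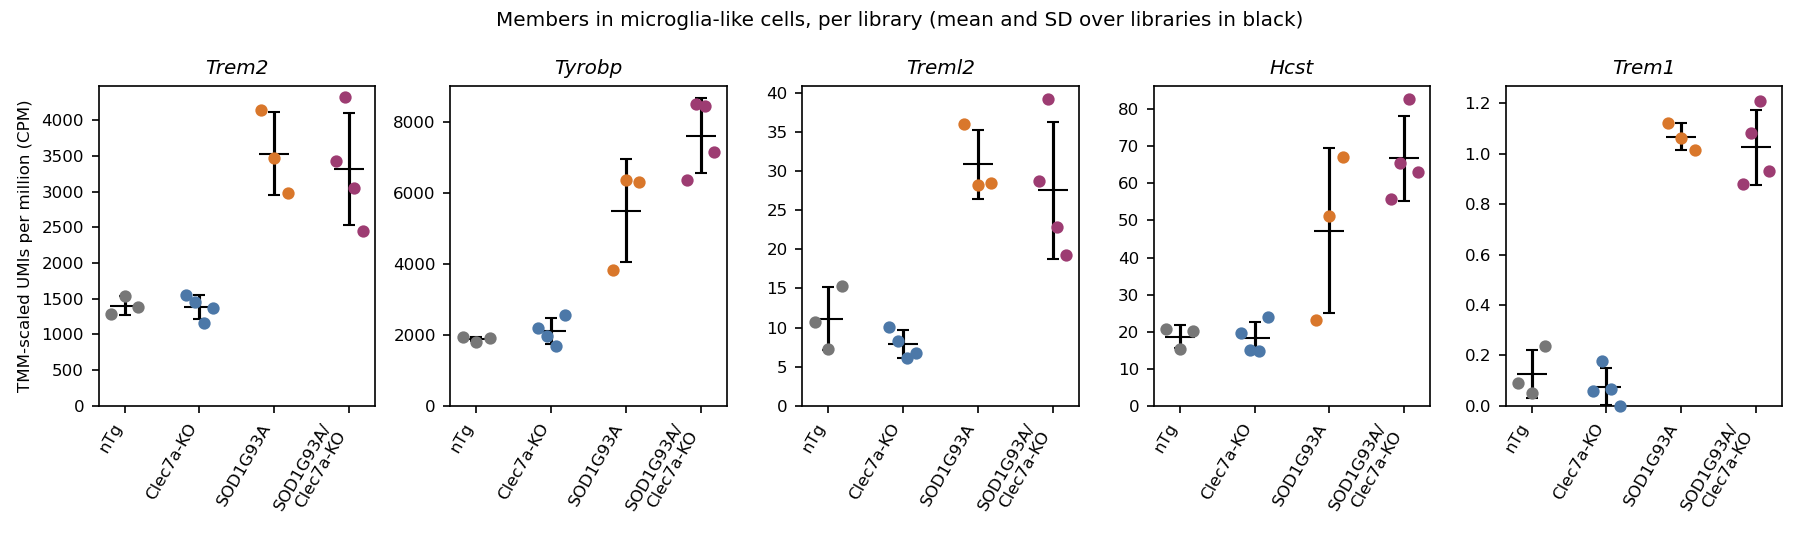
TMM-scaled CPM of 5 members in microglia-like cells, with a point for each library by group and the mean and SD in black. The 7 libraries with the transgene lie above the 7 without it for Trem2, Tyrobp, Treml2 and Trem1, and 1 SOD1G93A library lies among the lower values of Hcst.

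Tyrobp was at 1941, 1814 and 1905 CPM in nTg and at 2196, 1965, 1684 and 2551 in Clec7a-KO libraries. It was at 3838, 6362 and 6329 in SOD1G93A and at 6371, 8530, 8452 and 7158 in SOD1G93A/Clec7a-KO. Again all libraries with the transgene lay above all those without, and SOD1G93A library 1 was the lowest of the former. The log2 fold change was 1.55 ± 0.23 for SOD1G93A minus nTg (edgeR adjusted p = 0.000214) and 1.86 ± 0.20 for SOD1G93A/Clec7a-KO minus Clec7a-KO (7.58e-06). Every SOD1G93A/Clec7a-KO library was above every SOD1G93A library by a narrow gap, which was absent with library totals in place of TMM factors (lowest SOD1G93A/Clec7a-KO value 5574 CPM, highest SOD1G93A value 5577). The difference of 0.47 ± 0.22 did not pass in edgeR (adjusted p = 0.468). Over all genes, 4.01% had SOD1G93A/Clec7a-KO libraries above all SOD1G93A libraries.

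Treml2 was at 10.7, 7.28 and 15.3 CPM in nTg, at 10.1, 8.32, 6.15 and 6.79 in Clec7a-KO, at 35.9, 28.2 and 28.5 in SOD1G93A and at 28.7, 39.2, 22.9 and 19.3 in SOD1G93A/Clec7a-KO. The values with and without the transgene did not overlap with TMM factors, but did with library totals in their place (lowest value with the transgene 15.004 CPM, highest without 18.4). Its log2 fold changes were 1.48 ± 0.29 without a Clec7a deletion (edgeR adjusted p = 0.00139) and 1.80 ± 0.25 with it (6.53e-05). Hcst, the Nkg2d adaptor, was at 20.7, 15.2 and 20.2 CPM in nTg, at 19.6, 15.2, 14.8 and 23.9 in Clec7a-KO, at 23.1, 51.2 and 67.1 in SOD1G93A and at 55.8, 65.4, 82.8 and 63.1 in SOD1G93A/Clec7a-KO. Here SOD1G93A library 1 (23.1) lay below Clec7a-KO library 4 (23.9), so the values with and without the transgene overlapped. The fold changes were 1.34 ± 0.31 (adjusted p = 0.00421) and 1.86 ± 0.27 (8.18e-05).

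Trem1 was near the limit of detection in microglia-like cells, with 7 UMIs in all nTg libraries together, 8 in Clec7a-KO, 208 in SOD1G93A and 157 in SOD1G93A/Clec7a-KO. In CPM it was at 0.0922, 0.0524 and 0.235 in nTg and at 0.0592, 0.176, 0.0647 and 0 in Clec7a-KO. With the transgene it was at 1.12, 1.06 and 1.02 in SOD1G93A and at 0.881, 1.08, 1.21 and 0.932 in SOD1G93A/Clec7a-KO. Only its libraries with the transgene could carry Trem1 past the filter on low counts, which favours a higher value with the transgene. The groups did not overlap, and the fitted log2 fold changes of 3.21 ± 0.51 (edgeR adjusted p = 0.000324) and 3.52 ± 0.46 (3.48e-05) depend on the prior count at such levels. With 1 library left out, the first ran from 2.90 (without nTg library 2) to 3.75 (without nTg library 3). The second ran from 3.28 (without Clec7a-KO library 4) to 4.34 (without Clec7a-KO library 2). The sum of the 9 neutrophil markers in the same cells was at 224 to 1063 CPM in nTg, 175 to 564 in Clec7a-KO, 157 to 197 in SOD1G93A and 152 to 183 in SOD1G93A/Clec7a-KO. The Clec7a-KO and SOD1G93A ranges overlapped. The markers were not examined one by one, and microglia may share some of them, so this sum need not follow neutrophil RNA. The source of the Trem1 UMIs was not tested. Trem3, with 15 UMIs in nTg, 29 in Clec7a-KO, 23 in SOD1G93A and 4 in SOD1G93A/Clec7a-KO, did not pass the filter on low counts and was not tested.

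Trem1 is left out of the shares that follow, since only its libraries with the transgene could carry it past the filter. In SOD1G93A minus nTg, Trem2, Tyrobp, Treml2 and Hcst were all higher. Over the 16619 genes tested, 19.6% rose and 32.6% changed in either direction. In SOD1G93A/Clec7a-KO minus Clec7a-KO, the same members were all higher, against 25.2% of genes. All SOD1G93A libraries lay above all nTg libraries for each of these members and for 29.1% of genes. All SOD1G93A/Clec7a-KO libraries lay above all Clec7a-KO libraries for each of them and for 20.9% of genes. The 7 libraries with the transgene lay above the 7 without for Trem2, Tyrobp and Treml2, not for Hcst, and for 2491 of the 16619 genes. These counts hold with TMM factors: with library totals, Treml2 overlapped between the 7 and 7 libraries as given above, and Hcst overlapped between SOD1G93A (lowest 21.8 CPM) and nTg (highest 25.6). The mean of both transgene comparisons was 1.30 ± 0.15 for Trem2 (edgeR adjusted p = 4.52e-06), 1.70 ± 0.16 for Tyrobp (6.00e-07), 1.64 ± 0.19 for Treml2 (6.23e-06) and 1.60 ± 0.20 for Hcst (1.40e-05), where 29.8% of genes rose. For Trem1 this mean was 3.36 ± 0.34 (edgeR adjusted p = 1.74e-06). With library totals in place of TMM factors, the median over all genes of SOD1G93A minus nTg moved from 0.01 to -0.44, and the calls from 3255 higher and 2158 lower to 1477 higher and 5674 lower. All 5 members were still called higher: Trem2 by 0.90, Tyrobp by 1.09, Hcst by 0.87, Treml2 by 1.04 and Trem1 by 2.77.

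**Figure D4:**
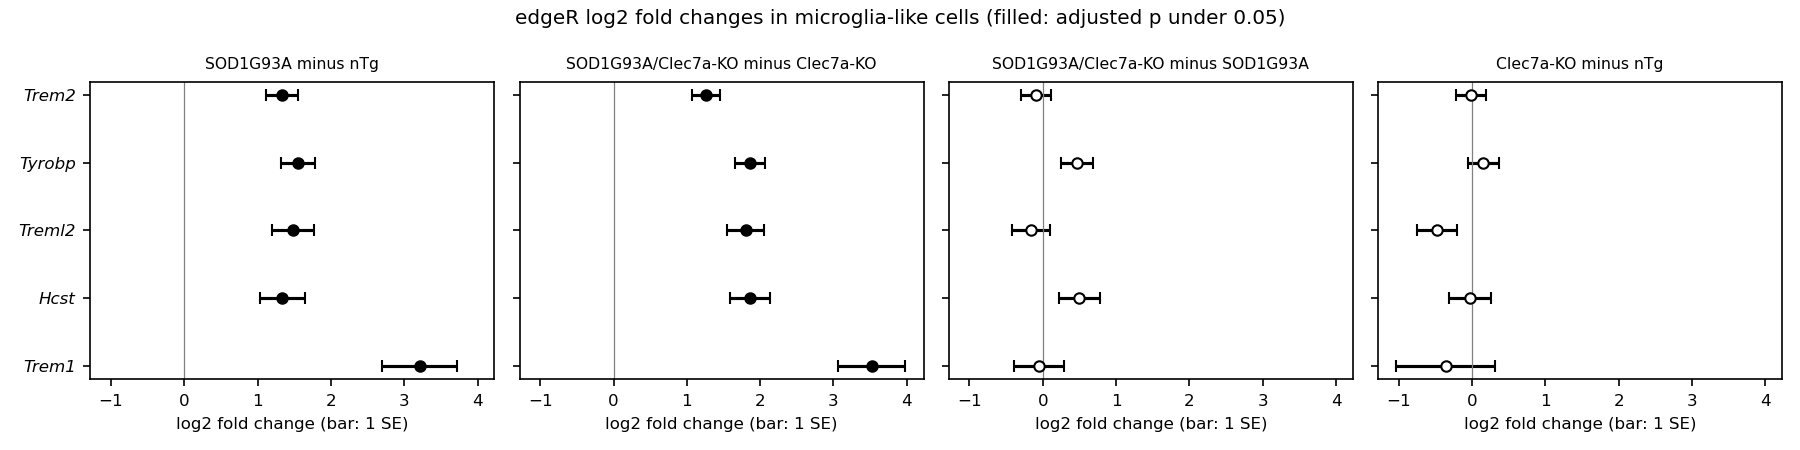
edgeR log2 fold change of 5 members in microglia-like cells for 4 comparisons; bars are 1 SE and filled points passed an adjusted p of 0.05. All 5 points are filled and above 0 in both transgene comparisons, and none is filled in either Clec7a comparison.

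Loss of Clec7a changed no member past the threshold. In SOD1G93A/Clec7a-KO minus SOD1G93A, 0 of 5 members were called, as were 3 of 16619 genes (0.0181%). Beside Tyrobp, the log2 fold changes were -0.09 ± 0.20 for Trem2 (edgeR adjusted p = 0.860), 0.50 ± 0.28 for Hcst (0.496), -0.16 ± 0.26 for Treml2 (0.809) and -0.05 ± 0.34 for Trem1 (0.957). With 1 library left out, Hcst ran from 0.17 (without SOD1G93A library 1) to 0.84 (without SOD1G93A library 3), and Tyrobp from 0.26 (without SOD1G93A library 1) to 0.59 (without SOD1G93A library 2), still not called. In Clec7a-KO minus nTg, 0 of 5 were called against 5 genes in all (0.0301%), with Trem2 at -0.02, Tyrobp at 0.15, Treml2 at -0.48, Hcst at -0.03 and Trem1 at -0.36. The edgeR interaction, which asks whether the transgene difference itself depends on Clec7a, called 0 genes (0.0%; 300 at an unadjusted p under 0.05), against 2 genes by DESeq2. It stood at -0.08 for Trem2 and 0.32 for Tyrobp. With 1 library left out, the Tyrobp value ran from 0.12 (without SOD1G93A library 1) to 0.43 (without SOD1G93A library 2). That of Hcst ran from 0.21 (without SOD1G93A library 1) to 0.87 (without SOD1G93A library 3). These comparisons share groups with those above. A missed threshold does not show that the genotypes were equal. Standard errors are given for SOD1G93A/Clec7a-KO minus SOD1G93A alone, so the precision of the other differences is not shown here.

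Other features of the microglia-like cells moved with the transgene. The class made up 31.7 ± 4.18% of cells in nTg (SD, n = 3), 40.8 ± 3.64% in Clec7a-KO (n = 4), 59.1 ± 2.88% in SOD1G93A (n = 3) and 58.2 ± 5.96% in SOD1G93A/Clec7a-KO (n = 4). The Gpnmb-led cluster that stayed outside the class held a further 5.60% of SOD1G93A and 10.4% of SOD1G93A/Clec7a-KO cells and 0.0229% of nTg and 0.005% of Clec7a-KO cells. The summed level of 20 genes that rise during tissue dissociation was 45072 to 54607 CPM in nTg and 46918 to 59422 in Clec7a-KO, against 22036 to 24090 in SOD1G93A and 20259 to 25323 in SOD1G93A/Clec7a-KO. All 8 markers of border-associated macrophages were detected, among them Ms4a7, which is also a leading gene of the Gpnmb-led cluster. Their summed levels were 1.94 to 4.24 CPM without and 29.6 to 79.7 CPM with the transgene. Other marker sums were lower with it: dendritic cell markers, among them Siglech, which microglia share, were at 481 to 922 CPM without and 164 to 304 with it, B cell markers at 164 to 229 and 70.6 to 140, and monocyte markers at 3.71 to 34.8 and 1.65 to 3.44. Those of T and NK cells overlapped. Single markers were not examined, and microglia may share others of them, so these sums do not measure how many such cells were present. The mean of the libraries' median UMIs per microglia-like cell was 9525 in nTg, 8284 in Clec7a-KO, 16773 in SOD1G93A and 11135 in SOD1G93A/Clec7a-KO. The part of these in the differences above was not tested.

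Part of the transgene difference was also seen within the homeostatic cluster 1, the only microglia-like cluster with at least 20 cells in all 14 libraries. Its leading genes included the sex-linked Tsix and Xist, and SOD1G93A/Clec7a-KO library 2 held only 25 of its cells. No fit with a sex-gene covariate or with 1 library left out was run within this cluster. There the mean of the 2 transgene comparisons was 0.63 ± 0.13 for Tyrobp (edgeR adjusted p = 0.00545), 1.33 ± 0.24 for Treml2 (0.00231), 0.78 ± 0.17 for Hcst (0.00656) and 0.52 ± 0.15 for Trem2 (0.0348), where 5.66% of 11853 genes rose. C1qa rose by 0.80 in the same cells. With library totals in place of TMM factors, Trem2 stood at 0.44 and no longer passed (adjusted p = 0.0772). In SOD1G93A minus nTg alone, Treml2 was the single member called within the cluster (1.47, adjusted p = 0.0257), where 1.32% of genes rose. Trem2 (0.57, adjusted p = 0.251), Tyrobp (0.53, 0.209) and Hcst (0.53, 0.325) were not.

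In border-associated macrophages-like cells, too few for a test in every library (as few as 13 cells), Trem2 was at 664 to 2361 CPM (median 1346) in the 7 libraries with the transgene and at 286 to 645 (median 519) in the 7 without. These ranges did not overlap, as was true in the same direction for 0.996% of 2913 genes with a mean of at least 50 CPM. Tyrobp overlapped, at 2326 to 5051 with and 2057 to 3122 without the transgene. The receptor was thus apart between these libraries and the adaptor was not. The macrophage marker Mrc1 was at 592 to 994 with and 744 to 2237 without the transgene. The part of microglial RNA in the Trem2 difference was not tested.

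The ratio of Trem2 to Tyrobp UMIs in microglia-like cells, which needs no scaling between libraries, was 0.660, 0.850 and 0.724 in nTg and 0.710, 0.742, 0.687 and 0.535 in Clec7a-KO. It was 1.08, 0.547 and 0.471 in SOD1G93A and 0.538, 0.507, 0.361 and 0.342 in SOD1G93A/Clec7a-KO. SOD1G93A library 1 had the highest ratio of all 14, and 4 of the other 6 libraries with the transgene lay below every library without it. Libraries with the transgene were lower by 0.44 on the log2 scale in the mean (as with minus without, -0.44), which did not pass a two-sided exact permutation test over 7 and 7 libraries (p = 0.0752). Without SOD1G93A library 1 the difference was -0.62 (exact permutation p = 0.0035). Whether the difference passes the test thus depends on that library.

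**Figure D5:**
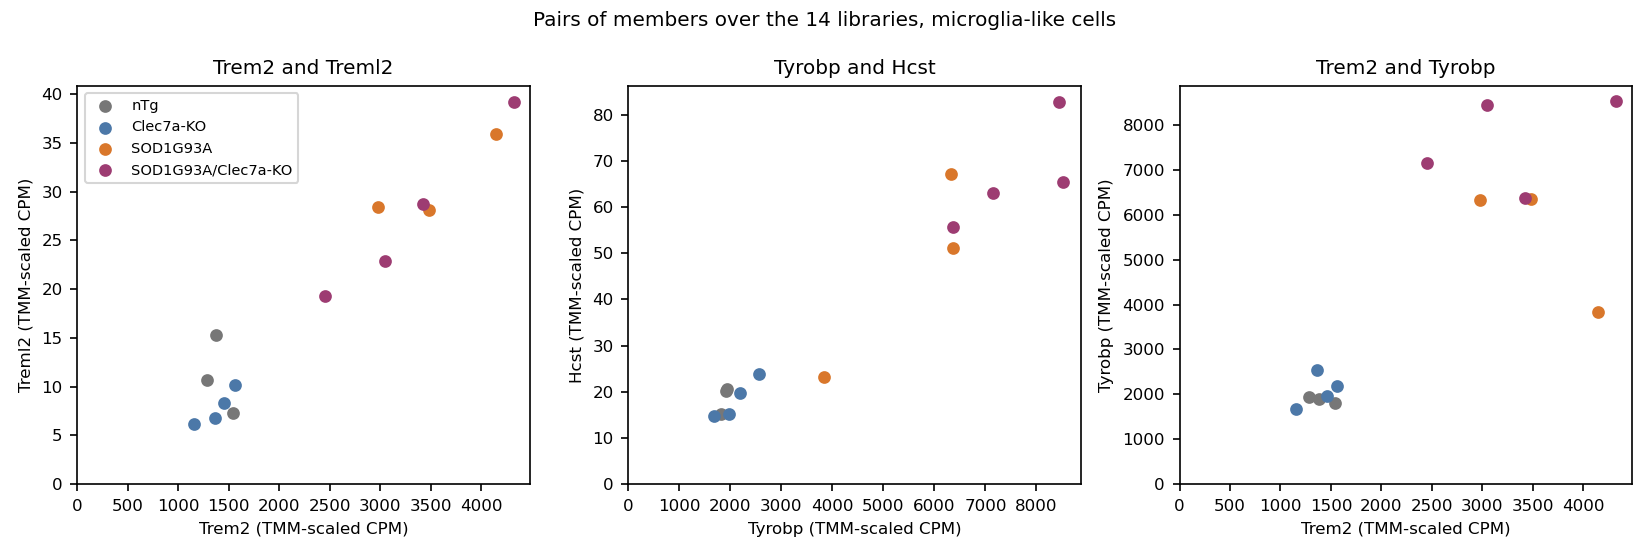
Pairs of members in microglia-like cells, each axis in TMM-scaled CPM, with a point for each of the 14 libraries coloured by group. Trem2 and Treml2, and Tyrobp and Hcst, vary together among the libraries with the transgene, and 1 SOD1G93A library has 4150 Trem2 with 3838 Tyrobp.

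Because the libraries fall into 2 clouds by transgene, relations between members were computed within each (7 libraries, 30 relations in all, exact permutation tests). With the transgene, Trem2 and Treml2, neighbours on chromosome 17, had r = 0.95 (p = 0.00635, adjusted p = 0.152) and rho = 0.82 (p = 0.0341, adjusted p = 0.480), and r = 0.83 without the 2 libraries farthest from the median. Tyrobp and Hcst, neighbours on chromosome 7, had r = 0.94 (permutation p = 0.0202, adjusted p = 0.152) and rho = 0.57 (p = 0.2, adjusted p = 0.857), and r = 0.83 without 2 libraries. Trem2 and Tyrobp themselves had r = -0.30 (permutation p = 0.547, adjusted p = 0.864) and rho = 0.04 (p = 0.963), and r = -0.87 without 2 libraries. No relation passed after adjustment. Without the transgene, Trem2 and Treml2 had r = 0.21 and Tyrobp and Hcst r = 0.78 (exact permutation p = 0.0373, adjusted p = 0.224), which fell to 0.41 without 2 libraries. Among transgenic libraries Trem2 also ran against the library number in the labels (r = -0.84, exact permutation p = 0.0155, adjusted p = 0.152), as did Treml2 (r = -0.89, p = 0.0103, adjusted p = 0.152). The labels do not say what this number orders. It was 1, 5 and 6 for SOD1G93A and 8, 9 and 12 for nTg libraries. What it orders thus cannot be told apart from genotype in SOD1G93A minus nTg. The numbers of SOD1G93A/Clec7a-KO (2, 3, 13 and 15) and Clec7a-KO libraries (4, 7, 10 and 16) interleaved.

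Genes most like each member were ranked by Pearson's r of log2(CPM + 1), as a description. Over the 28 clusters, among 9919 genes, Trem2 was most like the complement genes C1qa (r = 0.997), C1qb and C1qc, the lysosomal Cd68 and the protease gene Ctss. Tyrobp was most like Fcer1g (0.997), the other ITAM adaptor of myeloid cells, followed by Arl11, Itgb2, Cd52 and Myo1f. The nearest genes to Trem1 were Pilrb1 (0.983), Nfe2, Fpr1, Cd177 and Lilra6, and those to Trem3 were Nfe2 (0.993), Hp, Cebpe, Cd177 and Wfdc21. Treml2 was nearest to Glipr1 (0.967), Itgb2, Myo1f, Cd52 and Csf2rb, and Hcst to Rac2 (0.976), Arhgap9, Ptprc, Cd52 and AB124611. Over the 14 microglia-like library sums, where 2864 genes with a mean of at least 50 CPM were compared, many genes share the transgene difference and r was at least 0.989 for all 10 genes named: C1qa, Cct5, Imp3, Ndufa8 and Cnpy2 for Trem2, and Trappc2l, Swi5, H2afj, Mif and Ifitm3 for Tyrobp.

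Lists of genes that work with the members were counted in SOD1G93A minus nTg microglia-like cells, where the median over all genes was 0.01. Of 26 genes of ITAM signalling, 5 were higher, 3 lower and 18 did not pass (median log2 fold change 0.03). Malt1, which links this pathway to NF-kappaB, rose by 2.74 ± 0.24 (34.9 to 233 CPM, edgeR adjusted p = 2.19e-06) and the Src-family kinase gene Fgr by 2.47 ± 0.30 (8.70 to 47.9, 3.07e-05). Fyn, Lat2 and Grb2 were the other genes that rose, and Dok3, Pik3r1 and Pik3cd were those that fell. Syk, the kinase that docks on Tyrobp, stood at -0.01. The share of these genes that rose was close to that over all genes in this comparison (19.6%), as was the share that changed in either direction (32.6%).

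Of 17 other receptors that signal through Tyrobp, 9 were tested, of which 5 were higher and 1, Siglech, was lower (median 0.80); over all genes 19.6% were higher. Cd300lb rose by 3.81 ± 0.30 (1.13 to 16.4 CPM, edgeR adjusted p = 9.68e-07) and Pilrb2 by 2.09 ± 0.42 (0.498 to 1.98 CPM, 0.00193), beside Pilrb1, Cd300c2 and Itgb2. Of 8 genes of receptor shedding and membrane cleavage, which can release the outer part of Trem2, 3 were higher, none was lower and 5 did not pass, beside the same 19.6% higher over all genes. Psen2, a gamma-secretase subunit gene, rose by 2.15 ± 0.20 (12.95 to 57.4 CPM, adjusted p = 3.47e-06) and the sheddase gene Adam17 by 0.72 ± 0.18 (90.1 to 148 CPM, 0.00684), with Aph1a as the third. The other ITAM adaptor Fcer1g went from 1507 to 3154 CPM (1.07 ± 0.22, adjusted p = 0.00230).

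Of 7 ligand and coreceptor genes tested, Apoe rose, Sema6d (-2.03 ± 0.40, edgeR adjusted p = 0.00154) and Pglyrp1 fell, and 4 did not pass. Over all genes, 19.6% rose and 32.6% changed in either direction. Of 3 genes tested on the Hcst side, among Nkg2d and its ligands, the ligand genes Raet1d (3.61 ± 0.76, 0.0277 to 0.419 CPM, adjusted p = 0.00248) and Ulbp1 (1.28 ± 0.20, 3.32 to 8.02 CPM, 0.000318) rose, where 19.6% of all genes did. Raet1d, like Trem1, was near the limit of detection, so its fold change rests on few molecules. Its nTg libraries were too low to carry it past the filter on low counts, which favours a rise. Of 4 genes of Hcst signalling, Grb2 rose by 0.45 and Pik3r1 (-0.61) and Pik3cd fell, where 32.6% of all genes changed in either direction. All 4 were already counted among the genes of ITAM signalling. Treml1, the single other Trem-like gene tested, stood at -0.25 and did not pass. Among 20 dissociation-stress genes, 9 were lower and 1 higher, where 2158 of 16619 genes were lower, with Klf2 at -2.26 (adjusted p = 0.000278) and Klf4 at -1.61 (0.000826).

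Every gene of both lists of disease-associated microglial genes was higher. All 6 genes of the stage that needs no Trem2 were higher (median 2.13), where 19.6% of all genes were, among them Apoe by 5.53 ± 0.51 (1591 to 73399 CPM, edgeR adjusted p = 3.25e-06) and Lyz2 by 3.702 ± 0.295 (355 to 4626 CPM, 9.61e-07). All 10 genes of the stage that depends on Trem2 in other models were higher (median 3.17), among them Cst7 by 5.89 ± 0.45 (17.3 to 1022 CPM, 7.87e-07) and Itgax by 4.44 ± 0.47 (9.61 to 206 CPM, 1.09e-05). Both lists are known from earlier work on such mice and are no independent evidence of a direction. In the comparisons of SOD1G93A/Clec7a-KO with SOD1G93A and of Clec7a-KO with nTg, and in the interaction, no gene of any of these lists was called by edgeR.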

How the data were processed

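Single-cell RNA sequencing (10x 3′ v3.1) covered 14 spinal cord libraries. The authors deposited raw UMI counts per gene and cell; per the file headers the matrix software version was 3.0.2, and the submitters' processing notes name Cell Ranger, Seurat, DESeq2 and mm10. The aligner settings, annotation and use of strand are not given in the sources used here. Cells with under 500 genes, under 1000 UMIs or over 15% mitochondrial UMIs were left out; Scrublet scores removed the top 0.8% per 1000 barcodes as doublets. Clustering used scanpy 1.11.5 (2000 variable genes without the members and Clec7a, 30 components, 15 neighbours, Leiden resolution 1), and clusters were named from fixed markers. The sums of UMIs of a class in each library were fitted with edgeR 4.0.16 in R 4.3.3 (filterByExpr, TMM, quasi-likelihood test, two-sided, 4 groups in 1 model, Benjamini-Hochberg over all genes of the class, threshold 0.05) in classes with at least 20 cells in every library. The script was tested on simulated data. Alternatives, tried one at a time, were DESeq2 1.42.0, RLE factors, library totals, no count filter, a replicate block, covariates, other cell filters, doublet removal and clustering, and leaving out each library. Named beside the members are the 2 genes of each list with the largest called change in SOD1G93A minus nTg and the 5 genes most like a member; further genes were named after their values were seen. The members and lists were chosen with earlier results of these data known.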

Additional observations from a re-analysis of the deposited data

How the results depend on the processing

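The 5 tested members kept their direction and their call in microglia-like cells under all 28 alternatives of SOD1G93A minus nTg (140 values, highest edgeR or DESeq2 adjusted p 0.0254), all of SOD1G93A/Clec7a-KO minus Clec7a-KO (140 values) and all of their mean (135 values). Of these alternatives 2, which add unnamed clusters close to microglia, were chosen after seeing the data. No member became called in a Clec7a comparison or the interaction. In microglia-like cells, DESeq2 called 23 genes in SOD1G93A/Clec7a-KO minus SOD1G93A and 9 in Clec7a-KO minus nTg, against 3 and 5 by edgeR; the former count ran from 2 to 23 over all alternatives, with 11 without SOD1G93A library 1 and 13 without a count filter. Small uncalled differences changed sign, and the cause was not tested. In SOD1G93A/Clec7a-KO minus SOD1G93A, adding the library number as a covariate put Trem2 at 0.0428 and Treml2 at 0.0132, and leaving out 1 library gave -0.25 to 0.0270 for Trem2 and -0.16 to 0.0219 for Trem1. In Clec7a-KO minus nTg, leaving out 1 library gave -0.0804 to 0.0620 for Trem2, -1.18 to 0.17 for Trem1 and -0.17 to 0.0603 for Hcst. Treml2 (-0.70 to -0.19) and Tyrobp (0.0470 to 0.25) kept their sign there but changed in size. In the interaction, Trem2 was at 0.16 with a sex-gene covariate and 0.0759 with the library number, and -0.23 to 0.0565 with 1 library left out; Trem1 was at -0.0354 with more doublets removed, -0.00975 at Leiden resolution 0.5 and -0.22 to 1.13 with 1 library left out. The log2 difference in the ratio of Trem2 to Tyrobp was -0.62 to -0.34 with 1 library left out, and passed without SOD1G93A library 1 (-0.62).

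With a replicate block, Trem1 was at 0.0187 in SOD1G93A/Clec7a-KO minus SOD1G93A and Trem2 at 0.0450 in Clec7a-KO minus nTg, and no call of a member changed. Over 19 pairs of equal numbers the deviations correlated by -0.17 to 0.38 (median 0.0977), with 9 of 19 over 0.1. Pairs of unequal numbers from different groups ran from -0.47 to 0.48. These values do not settle whether samples were paired. The labels do not say what equal numbers mark, and the numbers were not taken to pair the samples. Depth limits Trem1 and Trem3 most: Trem3 could not be tested in microglia-like cells, and the Trem1 differences rest on 15 UMIs without the transgene. With cells thinned to 2000 UMIs, Trem2 was seen in 94.3% of nTg and 98.7% of SOD1G93A microglia-like cells.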

Other observations

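SOD1G93A library 1 stood apart in several members within the microglia-like clusters. Its median depth was 8725 UMIs per microglia-like cell, against 19408 and 22185.5 in SOD1G93A libraries 2 and 3. The SOD1G93A/Clec7a-KO libraries ran from 8928.5 to 12830. Among the libraries with the transgene that had at least 20 cells of a cluster, at most 7 in each, SOD1G93A library 1 had the highest Trem2 level in 8 of 8 clusters and the lowest Tyrobp level in 8 of 8. It had the lowest Hcst in 7 of 8 clusters, and the highest Treml2 in 6 of 8 and the lowest in 1. SOD1G93A/Clec7a-KO library 4 had the lowest Trem2 in 7 of its 7 clusters with enough cells and the lowest Treml2 in 6, and was neither highest nor lowest in Tyrobp or Hcst in any. SOD1G93A/Clec7a-KO library 2 had the highest Tyrobp in 7 of its 7 clusters, and SOD1G93A/Clec7a-KO library 3 the highest Hcst in 5 of its 7. These libraries were chosen for mention after the values were seen, and the differences were not tested.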
